A study of Mus musculus with 15 samples.

Results

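The comparison described here is that of dural macrophages at postnatal day 21 (P21) with those of embryos, at E14.5. Its members were the libraries that the labels put at these ages, 3 at E14.5 and 3 at P21, and they make up 6 of the 15 libraries of the series. The study measured RNA in CD206-positive cells of the dura mater, the outer membrane around the brain, at 5 ages. All animals of both groups were C57BL/6J mice of the genotype Cx3cr1GFP/wt, in which GFP takes the place of 1 Cx3cr1 allele, and the labels list no treatment. The E14.5 and P21 libraries carry the same batch label, a project number, which the libraries of P3 and P10 share, whereas those of P56 carry another. The design text says that each age had 3 to 5 mice, and the labels do not give their sex.

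Macrophages of the dura are resident phagocytes at the border of the brain. They take up debris and foreign material, and those of the adult can present peptides on major histocompatibility complex (MHC) proteins to T cells that patrol the meninges. Resident macrophages are seeded before birth and divide while the tissue grows, and the comparison spans the time from that phase to about weaning.

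The 6 libraries held 20540444 to 25171858 counts. At E14.5 13017 to 13265 genes had at least 10 counts, and at P21 11254 to 13058 did. Correlations of log2 levels between replicates lay between 0.93 and 0.948 at E14.5 and between 0.843 and 0.896 at P21. P21 replicate 2 stood apart from the other 2 P21 libraries on the second principal component of the 6 libraries, with a score of 91.5 against -128 and -54.3, and it had the fewest genes detected. E14.5 replicates 1 and 2 held 71.5 and 49.8 CPM of Xist, the RNA of the inactive X chromosome, and at most 0.476 CPM of the Y-linked Ddx3y. In E14.5 replicate 3 and all P21 libraries Ddx3y lay between 54.4 and 152 CPM, and Xist was at most 2.82 CPM. E14.5 replicates 1 and 2 thus differ in these genes from the other 4 libraries. Xist and Y-linked RNA differ between the sexes, so age and sex cannot be fully told apart in this comparison. A fit without E14.5 replicates 1 and 2 leaves fewer libraries and made fewer calls. Its counts are given beside gene lists whose count it moved by over 1.5 times.

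Levels are given as CPM, counts scaled to a common library size, with the scale set by TMM, which assumes that most genes do not change, and stand in the order of the replicates. A gene was called when its adjusted p in edgeR's quasi-likelihood test was under 0.05, and log2 changes are given as P21 minus E14.5 with their standard error. Of 14683 genes tested, 1789 were called (12.2%), 1147 of them higher at P21 (7.81%) and 642 lower (4.37%). Of these, 1186 (8.08%) changed at least 2-fold, 775 rising (5.28%) and 411 falling (2.80%). The median log2 change was -0.01 over all genes tested. The share of rises among the calls depended on the scale: it was 64.1% with TMM and 33.3% with scaling by the total count alone, which gave 747 rises and 1493 falls and moved the median of all genes to -0.32. Small changes are therefore relative to the TMM scale. The fit without P21 replicate 2 called 1373 genes, and that without E14.5 replicates 1 and 2, which leaves E14.5 with 1 library assumed to vary like the other ages, called 374, 304 higher and 70 lower.

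**Figure D1:**
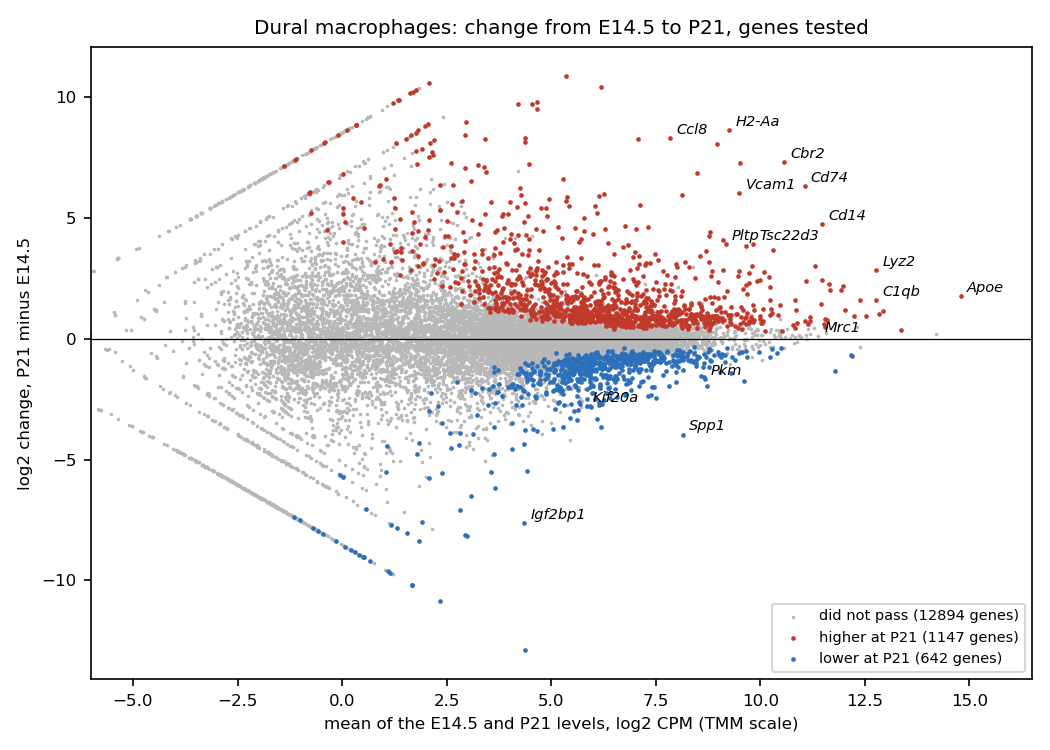
Each point is 1 gene tested, at its mean CPM over both ages (horizontal, log2) and its log2 change from E14.5 to P21 (vertical). Red points were called higher at P21 (1147 genes), blue points lower (642 genes) and grey points did not pass; genes at 0 in both ages are not drawn. The diagonal rows of points at the left are genes with no or very few counts in one of the ages, and Cbr2, Cd74 and Lyz2 lie far up among strongly detected genes.

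Among the largest rises of well detected genes were those of C-type lectin receptors, MHC class II genes, the chemokine Ccl8 and the carbonyl reductase Cbr2. Genes of matrix or secreted proteins, described below, were among them as well. Cbr2 had 20.1, 18.5 and 19.2 CPM at E14.5 and 3055, 2764 and 3235 CPM at P21, a 157-fold rise (log2 change 7.29 ± 0.15, adjusted p = 1.04e-12). Its libraries within an age differed little beside the gap between the ages. Ccl8, which encodes a chemokine that attracts monocytes and lymphocytes, had 2.17, 1.21 and 1.04 CPM at E14.5 and 486, 416 and 467 CPM at P21 (log2 change 8.29 ± 0.51, adjusted p = 1.44e-07). Pla2g2d, a secreted phospholipase, had 0.781, 1.83 and 0 CPM at E14.5 and 289, 273 and 246 CPM at P21 (log2 change 8.27 ± 0.95, adjusted p = 6.04e-05). The lectin genes Cd209b and Cd209g were almost silent at E14.5. Cd209b had 3 counts over the E14.5 libraries, all in replicate 1, and 80.2, 80.03 and 85.6 CPM at P21, a ratio of 2161 with a 95% counting interval of 739 to 10483. Cd209g had 0.260, 0.0367 and 0.0348 CPM at E14.5 and 194, 127 and 117 CPM at P21 (log2 change 10.40 ± 0.82, adjusted p = 1.79e-06). The Cd209 genes are related genes in a cluster, and how reads that fit several of them were counted is not given in the sources used here, so the split between them is uncertain.

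Some of the largest rises were less even. Retnla, which encodes a secreted protein of type 2 immune responses, had 0.0868, 0.0367 and 0.244 CPM at E14.5 and 14.1, 1.93 and 107 CPM at P21, so P21 replicate 2 lay far below replicate 3 (log2 change 8.30 ± 1.74, adjusted p = 0.00621), and it was not called by limma voom (adjusted p = 0.229). Cd209a had 22.5, 15.4 and 113 CPM at P21 and at most 0.174 CPM at E14.5 (log2 change 9.49 ± 1.52, adjusted p = 0.00091).

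Of the other genes with the largest rises, 4 encode matrix or secreted proteins that fibroblasts also make. Cpxm2 had 44.5, 81.6 and 25.9 CPM at P21, Igfbp7 had 25.2, 81.1 and 34.5 CPM, Sfrp4 had 2.20, 81.8 and 26.1 CPM and Comp had 83.3, 8.35 and 31.7 CPM, against at most 0.257 CPM in any E14.5 library of the 4. Sfrp4 was not called by limma voom (adjusted p = 0.0569). Fibroblast markers moved in the same direction. Of 15 fibroblast markers 5 were called higher and 0 lower, beside 7.81% and 4.37% over all genes tested. Their summed level was 112, 96.9 and 862 CPM of the total count at E14.5 and 2997, 2591 and 1698 at P21. Their part in the rise of the matrix genes was not tested.

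Among the largest falls were cell division genes, oncofetal genes, globins and genes of amino acid and glycogen metabolism. Igf2bp1, which encodes an RNA-binding protein of embryonic tissues, had 30.7, 36.7 and 55.04 CPM at E14.5 and 0.244, 0.313 and 0.0482 CPM at P21, a 198-fold fall (log2 change -7.63 ± 1.16, adjusted p = 0.000583). Spp1, which encodes the secreted protein osteopontin, had 710.4, 378 and 514 CPM at E14.5 and 37.5, 54.8 and 9.88 CPM at P21 (log2 change -3.97 ± 0.72, adjusted p = 0.00225). Pygm, a glycogen phosphorylase, had 69.4, 63.9 and 51.3 CPM at E14.5 and 2.10, 5.43 and 6.46 CPM at P21 (log2 change -3.72 ± 0.59, adjusted p = 0.000777). All E14.5 values of these 3 genes lay above all P21 values, as the naming rule for the largest falls required. Xist was listed at 0 counts in all P21 libraries, at least 786-fold lower against a floor of 3 counts over the age, and this fall rests on the E14.5 libraries named above (adjusted p = 0.154 without replicates 1 and 2, and 0.0586 in limma voom).

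Cenpn, a centromere protein, had 52.1, 32.1 and 33.3 CPM at E14.5 and 2.15, 0.470 and 3.08 CPM at P21 (log2 change -4.36 ± 0.70, adjusted p = 0.000935). Asns, which makes asparagine, had 53.8, 49.2 and 29.4 CPM at E14.5 and 0.636, 0.313 and 9.06 CPM at P21 and lost its call without any 1 of 4 libraries, E14.5 replicate 1 or 2 or P21 replicate 1 or 2 (log2 change -3.72 ± 1.01, adjusted p = 0.0266). Slc25a13, a mitochondrial aspartate and glutamate carrier, had 31.1, 44.97 and 39.6 CPM at E14.5 and 5.08, 0.209 and 3.04 CPM at P21 (log2 change -3.79 ± 0.88, adjusted p = 0.0112). Slc16a3, a lactate exporter, had 33.3, 62.1 and 47.1 CPM at E14.5 and 3.62, 0.104 and 6.41 CPM at P21 and lost its call without E14.5 replicate 2 or P21 replicate 1 (log2 change -3.81 ± 0.98, adjusted p = 0.0196). Fam83d, Stil and Troap, which act in spindle and centriole assembly, were called with adjusted p of 0.0371, 0.046 and 0.0433 and lost their calls without any 1 of 5 libraries. Tpx2 and Ccnb1 are described with the mitotic genes.

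The globin genes Hbb-bs and Hbb-bt fell as well. Hbb-bs had 42.6, 43.3 and 40.04 CPM at E14.5 and 0.782, 0.209 and 1.78 CPM at P21 (log2 change -5.49 ± 0.97, adjusted p = 0.00184), and Hbb-bt had 26.1, 23.2 and 25.6 CPM at E14.5 and 0.440, 0.104 and 0.482 CPM at P21 (log2 change -6.16 ± 1.26, adjusted p = 0.00532). Hbb-bs lost its call in limma voom (adjusted p = 0.0569). Of 12 erythroid markers tested 4 were called lower and 0 higher, beside 4.37% and 7.81% over all genes tested. The list summed to 349, 199 and 453 CPM of the total count at E14.5 and 123, 105 and 77.7 at P21. The part of red cell RNA in these falls was not tested.

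**Figure D2:**
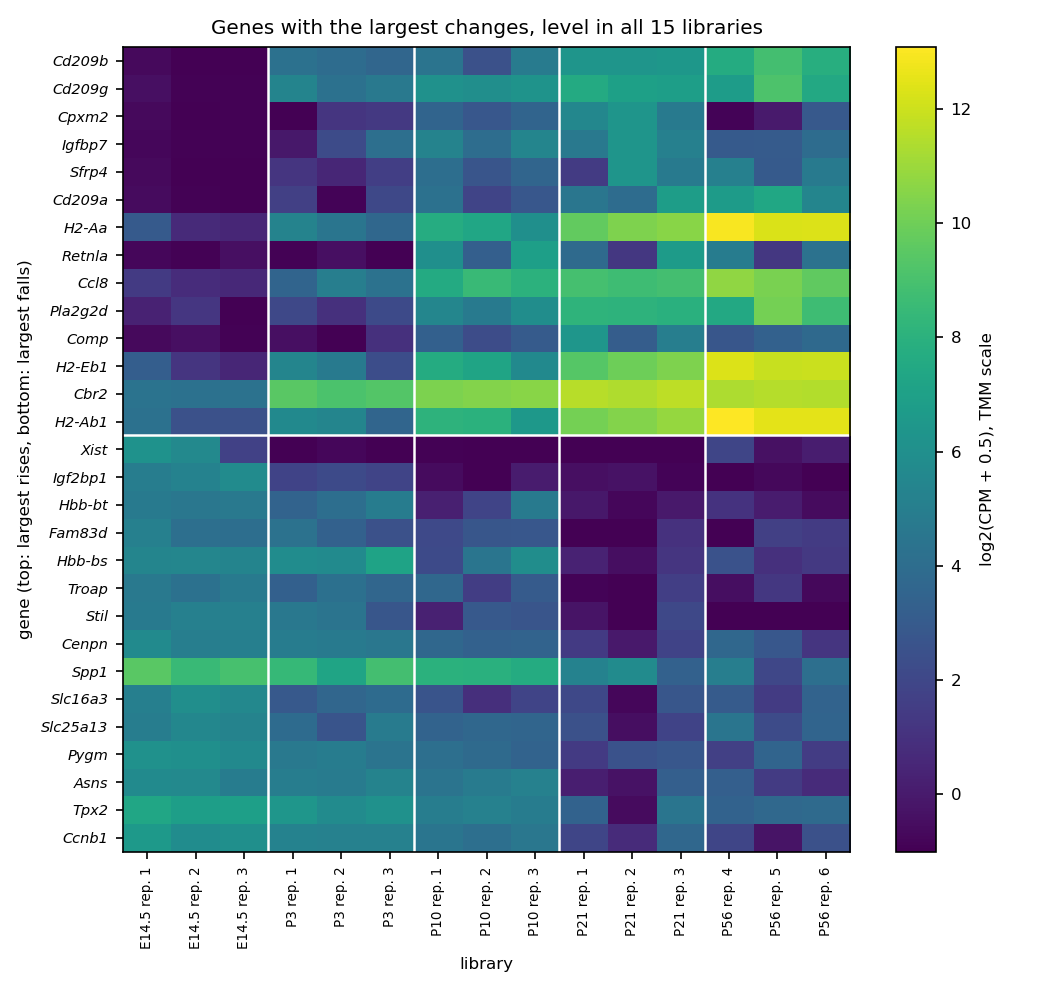
Rows are 14 of the 15 genes with the largest rise and the 15 with the largest fall under the naming rule, columns are all 15 libraries by age, and colour is log2(CPM + 0.5). The 3 P21 columns are bright in the upper block and dark in the lower one, while Xist is bright in E14.5 replicates 1 and 2, and Retnla and Sfrp4 are uneven among the P21 libraries.

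Most genes that mark border-associated macrophages rose, and the gene of the sorted protein did not pass the test. Mrc1, which encodes CD206, had 2427, 2632 and 2661 CPM at E14.5 and 2192, 2658 and 3469 CPM at P21 (log2 change 0.11 ± 0.26, adjusted p = 0.853). Of 24 border macrophage genes tested, 17 rose and 3 fell, with a median log2 change of 1.51. The count of falls was less stable: 1 member fell without P21 replicate 1 or P21 replicate 2, and 0 fell and 8 rose without E14.5 replicates 1 and 2. Cd163, the scavenger receptor for haptoglobin-bound haemoglobin, had 27.3, 35.6 and 55.98 CPM at E14.5 and 740.2, 851 and 969 CPM at P21 (log2 change 4.43 ± 0.37, adjusted p = 3.29e-06). Cd209f had 8.29, 6.93 and 3.13 CPM at E14.5 and 705, 856 and 571 CPM at P21 (log2 change 6.86 ± 0.46, adjusted p = 3.3e-07). In both genes the lowest P21 library lay far above the highest E14.5 library. The 3 members that fell are named here after their values were seen. Dab2, an endocytic adaptor, had 5280.3, 5889.6 and 6261 CPM at E14.5 and 3383, 3164 and 3932 CPM at P21 (log2 change -0.73 ± 0.14, adjusted p = 0.00356), F13a1, a subunit of coagulation factor XIII, had 4736, 6035 and 6239.8 CPM at E14.5 and 3742, 2994 and 4033 CPM at P21 (log2 change -0.66 ± 0.19, adjusted p = 0.0353), and Colec12, a scavenger receptor, had 584, 522 and 514 CPM at E14.5 and 254, 229.9 and 324 CPM at P21 (log2 change -1.004 ± 0.25, adjusted p = 0.0159). The members together made up 26112 ± 2569 CPM of the total count at E14.5 and 26408 ± 1347 at P21 (SD, n = 3). Dab2 and F13a1, which fell, contributed the most counts to this sum at E14.5, with means of 6629 and 6474 CPM of the total. Lyve1, a hyaluronan receptor, had 1223, 1395 and 1483 CPM at E14.5 and 555, 608 and 1048 CPM at P21 and did not pass (log2 change -0.89 ± 0.35, adjusted p = 0.117), but it was called lower with scaling by the total count (0.0312), by DESeq2 (0.0343) and by limma voom (0.0426, all adjusted p). Stab1, a scavenger receptor, had a log2 change of -0.43 (adjusted p = 0.401). In bulk libraries a shift in the share of cells that express a gene and a shift in RNA per cell cannot be told apart.

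Of 19 general macrophage genes tested 11 were called higher and 0 lower, with a median log2 change of 0.65. With scaling by the total count 7 rose and 1 fell, and 6 rose without E14.5 replicates 1 and 2. Lyz2, which encodes lysozyme, had 1634, 1732 and 1809 CPM at E14.5 and 11987, 13740.2 and 11026 CPM at P21 (log2 change 2.83 ± 0.17, adjusted p = 1.21e-07). Cd14, the co-receptor for lipopolysaccharide, had 199, 177 and 234 CPM at E14.5 and 6977, 4379 and 5061 CPM at P21 (log2 change 4.75 ± 0.34, adjusted p = 7.28e-07). Ctss, a protease that trims the invariant chain of MHC class II, had 1068, 842 and 798 CPM at E14.5 and 2814, 2997 and 2454 CPM at P21 (log2 change 1.61 ± 0.16, adjusted p = 1.9e-05). These 3 genes had no overlap between the ages, which held for 1771 of the 1789 called genes. Csf1r, the receptor for the macrophage growth factor CSF1, had 3843, 4371 and 4539 CPM at E14.5 and 5487, 5615 and 6481 CPM at P21 and did not pass (log2 change 0.46 ± 0.26, adjusted p = 0.276). Cx3cr1, of which 1 allele is replaced in these mice, had 868, 579 and 690.2 CPM at E14.5 and 431, 472 and 512 CPM at P21 and did not pass (log2 change -0.60 ± 0.20, adjusted p = 0.0767), but it was called lower with scaling by the total count (adjusted p = 0.0095) and by DESeq2 (adjusted p = 0.0297). Adgre1, the F4/80 gene, was called (log2 change 0.56 ± 0.14, adjusted p = 0.0158) and lost its call without E14.5 replicate 1 or P21 replicate 2, and it was not called with scaling by the total count (log2 change 0.24, adjusted p = 0.234). Ptprc and Spi1, which encode CD45 and the transcription factor PU.1, had log2 changes of 0.33 and 0.26 and did not pass.

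Genes used to mark microglia, the macrophages of the brain tissue itself, rose for 6 of 11 tested and fell for 0. Tmem119, a membrane protein used as a marker of microglia, had 29.3, 32.3 and 33.6 CPM at E14.5 and 82.8, 97.9 and 53.7 CPM at P21 (log2 change 1.30 ± 0.27, adjusted p = 0.00607). P2ry12, an ADP receptor of microglia, had a log2 change of 0.47 (adjusted p = 0.122), and Sall1, their defining transcription factor, was not tested because of its low counts. One of the 6 that rose, Sparc, is also in the fibroblast list. Without E14.5 replicates 1 and 2, 1 of the members was called higher.

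**Figure D3:**
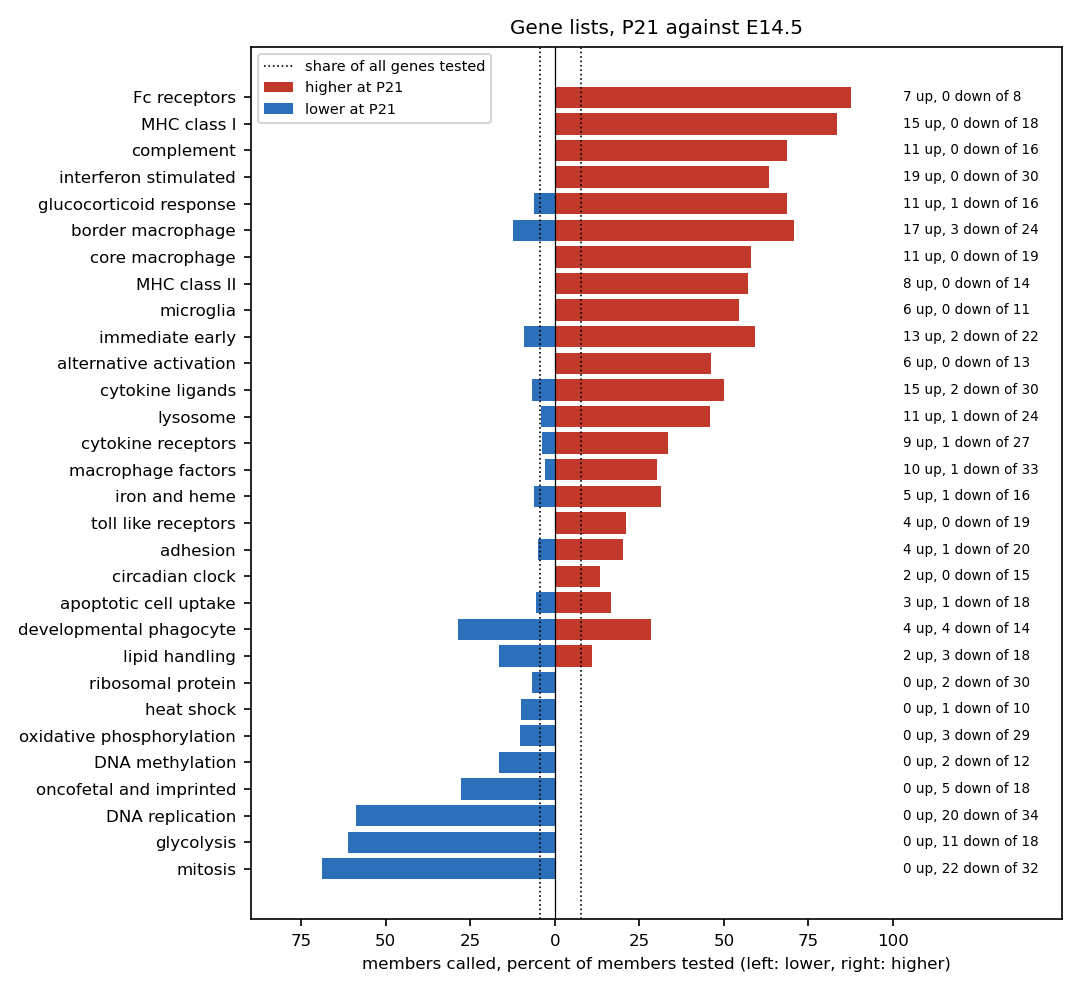
Bars give the share of tested members of each gene list that were called higher (red, to the right) or lower (blue, to the left) at P21, with the counts printed beside them. Dotted lines mark the shares over all genes tested, 7.81% higher and 4.37% lower. MHC class I, with 15 of 18 higher, lies near the top, and mitosis, with 22 of 32 lower, at the bottom.

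The MHC class II genes rose by some of the largest factors in the data. Their promoters carry conserved boxes through which the RFX complex, NF-Y and the co-activator CIITA act, and NF-Y binds a CCAAT sequence. The sequences shown here are the stretches from 170 bases before to 30 after the RefSeq start of 2 class II genes on GRCm38.p6, because these genes moved together. Capitals mark CCAAT on either strand, read as ATTGG where it lies on the other strand. H2-Aa lies at chr17:34287794-34287993 on the minus strand, and H2-Eb1 at chr17:34305697-34305896 on the plus strand.
H2-Aa: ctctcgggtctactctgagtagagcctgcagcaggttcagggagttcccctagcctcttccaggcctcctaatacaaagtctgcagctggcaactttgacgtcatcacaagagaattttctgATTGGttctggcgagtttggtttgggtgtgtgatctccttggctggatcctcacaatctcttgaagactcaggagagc
H2-Eb1: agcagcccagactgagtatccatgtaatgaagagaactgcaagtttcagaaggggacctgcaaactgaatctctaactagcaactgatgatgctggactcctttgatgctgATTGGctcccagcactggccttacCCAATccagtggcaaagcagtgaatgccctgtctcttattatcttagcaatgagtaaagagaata

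The promoters of H2-Aa and H2-Eb1 hold 1 and 2 matches in these windows. Of the 8 class II genes that rose, 4 had a promoter in the RefSeq table, and 4 of their 5 listed promoters (80%) held CCAAT within 250 bases before to 50 after the start. Over all 32851 promoters of the table the share was 37.41%. A match is a description of letters only.

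Of 14 class II genes tested 8 rose and 0 fell, with a median log2 change of 3.98. H2-Aa, which encodes the alpha chain of I-A, had 7.46, 1.10 and 0.939 CPM at E14.5 and 821, 1322 and 1525 CPM at P21 (log2 change 8.62 ± 0.87, adjusted p = 1.96e-05). H2-Ab1, its beta chain, had 18.4, 5.17 and 5.08 CPM at E14.5 and 1146, 1414 and 1830.4 CPM at P21 (log2 change 7.27 ± 0.73, adjusted p = 1.99e-05). H2-Eb1, the beta chain of I-E, had 8.64, 1.80 and 0.939 CPM at E14.5 and 668, 1005 and 1324 CPM at P21 (log2 change 8.07 ± 1.0002, adjusted p = 0.000115). For all 3 genes E14.5 replicate 1 was the highest of its age, and all P21 libraries lay far above it. Cd74, the invariant chain, had 55.6, 54.2 and 50.8 CPM at E14.5 and 3541, 4575 and 4541 CPM at P21, a 78.8-fold rise (log2 change 6.30 ± 0.30, adjusted p = 1.58e-08). The peptide loading genes H2-DMa and H2-DMb1 had 10.7, 10.4 and 8.70 CPM at E14.5 and 143, 155 and 168 CPM at P21 and 5.82, 7.18 and 5.15 CPM at E14.5 and 92.4, 93.02 and 103.2 CPM at P21 respectively. Ciita, whose product switches on these genes and which is named here after its values were seen, had 0, 0 and 0.0348 CPM at E14.5 and 9.04, 2.76 and 11.7 CPM at P21 (log2 change 8.78 ± 2.38, adjusted p = 0.0266). The class II summed level was 483, 352 and 339.9 CPM of the total count at E14.5 and 5986, 8059.9 and 9193 at P21. Ifi30, a thiol reductase of antigen processing, did not follow, with 271, 170.2 and 176 CPM at E14.5 and 148, 168 and 168 CPM at P21 (log2 change -0.35 ± 0.18, adjusted p = 0.233), although it was called lower with scaling by the total count (adjusted p = 0.0205). Reads of class II paralogs may be shared, so values of single genes are uncertain.

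Dendritic cells also carry class II, and their markers rose in part. Of 9 dendritic cell markers tested 3 were called higher and 1 lower, beside 7.81% and 4.37% over all genes tested. Among those that rose, Cd209a is also in the border macrophage list and Siglech in the microglia list. The dendritic cell list summed to 75.02, 66.8 and 81.6 CPM of the total count at E14.5 and 172, 201 and 296 at P21. Clec9a was at 0 in both ages, Flt3 had a mean of 0.227 and 0.681 CPM of the total at E14.5 and P21, and Zbtb46 had 19.8 and 25.5. Siglech contributed the most counts to this sum at P21, with 134 CPM of the total. The part of dendritic cells in the class II rise was not tested.

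MHC class I and its peptide loading machinery rose almost throughout, by smaller factors. Of 18 genes tested 15 rose and 0 fell, with a median of 1.72, with scaling by the total count 15 rose, and without E14.5 replicates 1 and 2 9 rose. H2-D1 had 750.3, 677 and 674 CPM at E14.5 and 4064, 3649 and 3247 CPM at P21 (log2 change 2.38 ± 0.11, adjusted p = 9.18e-09), and H2-K1, the other main presenting chain, had 381, 316 and 253 CPM at E14.5 and 1939, 1552 and 1664 CPM at P21 (log2 change 2.44 ± 0.15, adjusted p = 1.44e-07). B2m, the light chain shared by class I proteins, had 1567, 1544 and 1424 CPM at E14.5 and 4401, 4296 and 3651 CPM at P21 (log2 change 1.44 ± 0.14, adjusted p = 1.49e-05). The non-classical genes H2-T23 and H2-M3 rose by 7.12-fold and 5.61-fold. Erap1, a peptide trimming enzyme, had a log2 change of -0.17 (adjusted p = 0.762), and Nlrc5, the class I co-activator, had 2.04, 2.09 and 2.61 CPM at E14.5 and 5.04, 1.83 and 7.03 CPM at P21 and did not pass.

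Of 30 interferon-stimulated genes tested 19 rose and 0 fell, with a median of 1.51, and 10 rose without E14.5 replicates 1 and 2. Ifitm3, which blocks the entry of viruses, had 69.1, 69.2 and 54.6 CPM at E14.5 and 759, 634 and 661 CPM at P21 (log2 change 3.41 ± 0.19, adjusted p = 5.09e-08). Isg15, a ubiquitin-like protein, had 8.55, 14.6 and 9.18 CPM at E14.5 and 65.8, 54.8 and 49.3 CPM at P21 (log2 change 2.40 ± 0.29, adjusted p = 0.000106). Bst2, which tethers virus particles, rose by 2.63-fold and Xaf1 by 3.90-fold. Igtp and Irgm1, GTPases against intracellular microbes, missed the threshold with adjusted p of 0.0514 and 0.0509. Both were called higher by DESeq2 (0.0144 and 0.0175) and by limma voom (0.043 and 0.0415).

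Complement genes rose for 11 of 16 tested, with 0 lower and a median of 1.55, and for 7 without E14.5 replicates 1 and 2. The C1q chains form the recognition unit of the classical pathway. C1qa had 1229, 1298 and 1358 CPM at E14.5 and 5026, 5193 and 5298 CPM at P21 (log2 change 1.998 ± 0.11, adjusted p = 3.07e-08), C1qb rose by 3.01-fold and C1qc by 2.999-fold. Cfp encodes properdin, which stabilises the alternative pathway convertase, and had 163, 199 and 180.5 CPM at E14.5 and 1193, 1286 and 1273 CPM at P21 (log2 change 2.79 ± 0.11, adjusted p = 1.45e-09). Cd55, which dissolves convertases on the cell surface, had 3.34, 8.54 and 5.46 CPM at E14.5 and 105, 97.5 and 95.9 CPM at P21 (log2 change 4.10 ± 0.37, adjusted p = 6.51e-06). Activators and an inhibitor of complement thus rose in the same libraries. C3ar1, the receptor for C3a, had 1364, 961 and 998 CPM at E14.5 and 701, 1112 and 826 CPM at P21 and did not pass (log2 change -0.33 ± 0.17, adjusted p = 0.235), but it was called lower with scaling by the total count (adjusted p = 0.0188).

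Fc receptors, which bind antibodies, rose for 7 of 8 tested, with a median of 0.75, but 5 rose with scaling by the total count and 2 without E14.5 replicates 1 and 2. Fcgr2b, the inhibitory receptor, had 167, 122 and 119.6 CPM at E14.5 and 940.4, 1047 and 899 CPM at P21 (log2 change 2.82 ± 0.21, adjusted p = 1.18e-06). Fcgr3, an activating receptor, had 1163, 1129 and 1109 CPM at E14.5 and 2838, 2629.7 and 2239 CPM at P21 (log2 change 1.18 ± 0.13, adjusted p = 4.93e-05), and Fcgr4 rose by 2.51-fold. The list also holds Syk, the kinase below the activating receptors, which is not itself a receptor. Syk had a log2 change of -0.17 and did not pass. Of 19 genes of Toll-like receptor signalling 4 rose and 0 fell, beside 7.81% higher and 4.37% lower over all genes tested. Among those that rose were Cd14 and Ly96 (2.64-fold), whose product MD-2 binds lipopolysaccharide with TLR4. Ly86 (1.76-fold), whose product MD-1 pairs with the TLR-like protein CD180, rose as well. Tlr2 and Myd88 had log2 changes of 0.25 and 0.42 and did not pass.

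Among 30 cytokine and chemokine ligands tested 15 rose and 2 fell, with a median of 1.65. There were 8 rises and 1 fall without E14.5 replicates 1 and 2, and 1 fall without P21 replicate 1. Il1b, the inflammatory cytokine interleukin-1 beta, had 171, 199 and 195 CPM at E14.5 and 2596, 2296 and 2194 CPM at P21 (log2 change 3.65 ± 0.16, adjusted p = 8.48e-09). Tnf moved the other way, with 491, 577 and 638 CPM at E14.5 and 162, 248 and 171 CPM at P21 (log2 change -1.56 ± 0.16, adjusted p = 3.02e-05). For both genes the libraries of the 2 ages did not overlap, as for most called genes. Cxcl16, a membrane-bound chemokine, had 45.1, 51.3 and 55.8 CPM at E14.5 and 331, 446 and 295 CPM at P21 (log2 change 2.82 ± 0.19, adjusted p = 3.52e-07), and Ccl12 rose by 3.32-fold. The second ligand that fell, Ccl3, named after its values were seen, had 436, 376 and 400.2 CPM at E14.5 and 122, 241 and 126 CPM at P21 (log2 change -1.31 ± 0.31, adjusted p = 0.0135). Il10, an anti-inflammatory cytokine also named after its values were seen, had 1.17, 5.42 and 2.02 CPM at E14.5 and 152, 107 and 128 CPM at P21 (log2 change 5.48 ± 0.61, adjusted p = 4.95e-05). Ccl9 and Gas6 had log2 changes of 1.46 and 0.10 and did not pass, although DESeq2 called Ccl9 higher (adjusted p = 0.0362).

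Of 27 cytokine receptors tested 9 rose and 1 fell, beside 7.81% higher and 4.37% lower over all genes tested. Their median was 0.47, and 4 rose and 3 fell with scaling by the total count. Without E14.5 replicate 2, 4 of them rose, and without E14.5 replicate 1, P21 replicate 1 or P21 replicate 3, 5 rose. In the fit without E14.5 replicates 1 and 2 1 rose and 0 fell. Il10rb, a chain of the interleukin-10 receptor, had 229, 218 and 253 CPM at E14.5 and 511, 443 and 463 CPM at P21 (log2 change 1.02 ± 0.11, adjusted p = 2.99e-05). Ccrl2, which binds chemerin, rose by 3.49-fold and the chemerin receptor Cmklr1 by 3.01-fold. Il4ra, the receptor for interleukin-4 and interleukin-13, had 346, 497 and 497 CPM at E14.5 and 282, 223 and 317 CPM at P21 and lost its call without E14.5 replicate 2 or 3 or P21 replicate 2 (log2 change -0.70 ± 0.16, adjusted p = 0.0113). Ccr2, the receptor that draws monocytes into tissue, had 14.7, 13.9 and 30.7 CPM at E14.5 and 69.5, 148 and 81.7 CPM at P21 (log2 change 2.33 ± 0.70, adjusted p = 0.0425), and lost its call without any 1 of the 6 libraries and in limma voom (adjusted p = 0.0827). Of 9 monocyte markers tested 2 were called higher and 0 lower, beside 7.81% and 4.37% over all genes tested. The list summed to 231, 358 and 449 CPM of the total count at E14.5 and 2191, 1716 and 1587 at P21. Most of this sum was Nr4a1, an immediate early gene as well, while Ly6c2, which defines classical monocytes, had means of 0.0325 and 1.86 CPM of the total. The part of monocytes in the results was not tested.

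Genes linked to alternative activation by interleukin-4 rose for 6 of 13 tested, with 0 lower, and for 3 without E14.5 replicates 1 and 2. Mgl2 and Clec10a encode paired galactose-type lectins, and their reads may be shared. Mgl2 had 68.6, 55.4 and 58.8 CPM at E14.5 and 893, 1027 and 1202 CPM at P21 (log2 change 4.09 ± 0.16, adjusted p = 1.45e-09), and Clec10a had 60.3, 65.5 and 61.96 CPM at E14.5 and 823, 859.5 and 641 CPM at P21 (log2 change 3.63 ± 0.18, adjusted p = 2.05e-08). The signalling inhibitors Socs3 and Cish rose by 8.90-fold and 22.7-fold. Arg1, a classical marker of this state, had 0.0722 and 0.274 CPM of the total at E14.5 and P21 and did not pass.

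Genes that respond to glucocorticoids rose for 11 of 16 tested and fell for 1, with a median of 1.96, and 8 rose with scaling by the total count, and 7 rose and 0 fell without E14.5 replicates 1 and 2. Tsc22d3, which encodes the glucocorticoid-induced leucine zipper, had 126, 113 and 102 CPM at E14.5 and 1543, 2290.02 and 1306 CPM at P21, a 15.1-fold rise (log2 change 3.92 ± 0.27, adjusted p = 3.96e-07). Klf9 had 1.74, 0.733 and 0.835 CPM at E14.5 and 42.97, 64.3 and 74.8 CPM at P21 (log2 change 5.79 ± 0.74, adjusted p = 0.000143). Mt2, a metallothionein that zinc induces as well, had 11.9, 5.94 and 7.03 CPM at E14.5 and 278, 209 and 145 CPM at P21 (log2 change 4.67 ± 0.56, adjusted p = 9.22e-05). Sgk1, a kinase of ion transport, rose by 3.74-fold and Per1, a clock gene with a glucocorticoid-responsive promoter, by 6.57-fold. Fkbp5 had 24.3, 35.1 and 56.01 CPM at E14.5 and 71.4, 193 and 204 CPM at P21 (log2 change 2.02 ± 0.59, adjusted p = 0.0399) and lost its call without any 1 of 5 libraries and in limma voom (adjusted p = 0.0686). The glucocorticoid response element, searched on both strands as GNACA and TGTNC with 3 bases of any kind between them, was in 3 of 20 listed promoters of the genes that rose (15%) and in 0.4749% of all promoters. It was found in those of Mt1, Sgk1 and Txnip.

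Immediate early genes rose for 13 of 22 tested and fell for 2, with a median of 0.92, and 1 fell without E14.5 replicate 2, E14.5 replicate 3 or both E14.5 replicates 1 and 2. Klf2, a transcription factor, had 44.3, 62.4 and 70.7 CPM at E14.5 and 338, 448 and 580.1 CPM at P21 (log2 change 2.94 ± 0.26, adjusted p = 5.26e-06), Btg2, an inhibitor of proliferation, had 912, 873 and 911 CPM at E14.5 and 5542, 4577 and 4180.1 CPM at P21 (log2 change 2.41 ± 0.19, adjusted p = 1.93e-06), and Nr4a1, a nuclear receptor, had 185, 294 and 361 CPM at E14.5 and 2334, 1724 and 1592 CPM at P21 (log2 change 2.75 ± 0.29, adjusted p = 3.22e-05). The 2 that fell, named after their values were seen, were Egr1, with 5005, 4864 and 5294 CPM at E14.5 and 1782, 1731 and 2416 CPM at P21 (log2 change -1.35 ± 0.17, adjusted p = 0.000105), and Myc, with 51.9, 63.5 and 62.6 CPM at E14.5 and 29.97, 8.71 and 25.4 CPM at P21 (log2 change -1.47 ± 0.38, adjusted p = 0.0197). Jun had 1697, 1525 and 1787 CPM at E14.5 and 1303, 1517 and 2237 CPM at P21 and did not pass (log2 change 0.01 ± 0.20, adjusted p = 0.979). Of 10 heat shock genes 0 rose and 1, Hspd1, fell, beside 4.37% lower over all genes tested. The fall of Hspd1 was not called without E14.5 replicates 1 and 2.

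Genes of cell division fell together. The promoters of many mitotic genes share a cell cycle homology region (CHR), TTTGAA, through which the DREAM and MuvB complexes act, and CCAAT boxes bound by NF-Y. The 3 promoters shown are those of the called mitotic genes with the smallest p that have 1 listed start and hold both motifs in the window from 170 bases before to 30 after it. Capitals mark TTTGAA and CCAAT on either strand, and in Cdca8 a TTTGAA overlaps an ATTGG. Cdca8 lies at chr4:124936888-124937087, Cdk1 at chr10:69352883-69353082 and Cdc20 at chr4:118437314-118437513, all on the minus strand of GRCm38.p6 (RefSeq).
Cdca8: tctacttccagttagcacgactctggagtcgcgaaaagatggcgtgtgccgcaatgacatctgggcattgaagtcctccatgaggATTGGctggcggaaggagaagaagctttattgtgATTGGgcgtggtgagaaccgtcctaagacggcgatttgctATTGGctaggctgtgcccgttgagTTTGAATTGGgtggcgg
Cdk1: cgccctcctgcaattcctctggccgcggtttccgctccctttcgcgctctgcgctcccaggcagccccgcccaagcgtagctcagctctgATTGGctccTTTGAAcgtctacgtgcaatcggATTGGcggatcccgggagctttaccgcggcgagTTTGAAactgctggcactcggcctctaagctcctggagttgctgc
Cdc20: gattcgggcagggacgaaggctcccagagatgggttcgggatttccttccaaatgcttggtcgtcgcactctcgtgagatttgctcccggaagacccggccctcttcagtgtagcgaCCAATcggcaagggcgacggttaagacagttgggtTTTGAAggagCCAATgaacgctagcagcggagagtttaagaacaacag

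The windows hold 5 matches in Cdca8, 4 in Cdk1 and 3 in Cdc20. Among all listed promoters of the 22 mitotic genes that fell, 18 of which are in the table, TTTGAA was in 15 of 19 (78.95%) and CCAAT in 16 of 19 (84.21%). The shares over all promoters were 17.89% and 37.41%.

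Of 32 mitotic genes tested 22 fell and 0 rose, with a median of -2.18, and 30 were lower in every P21 library than in every E14.5 library, which held for 17.4% of all genes tested. Cdca8, a subunit of the chromosomal passenger complex, had 194, 150.2 and 137 CPM at E14.5 and 22.9, 29.1 and 37.3 CPM at P21 (log2 change -2.43 ± 0.21, adjusted p = 5.17e-06). Cdk1, the kinase that drives mitosis, had 332, 269.5 and 244 CPM at E14.5 and 49.4, 78.1 and 85.9 CPM at P21 (log2 change -1.99 ± 0.27, adjusted p = 0.000217). Kif20a, a kinesin of cytokinesis, had 111, 98.5 and 92.3 CPM at E14.5 and 11.49, 7.93 and 24.1 CPM at P21 (log2 change -2.80 ± 0.38, adjusted p = 0.000247). All 3 are among these 30. Ccnb1, the cyclin partner of Cdk1, had 95.3, 57.9 and 63.5 CPM at E14.5 and 3.37, 1.15 and 12.7 CPM at P21 (log2 change -3.65 ± 0.81, adjusted p = 0.00882), and Tpx2, a spindle assembly factor, had 162, 119.6 and 123 CPM at E14.5 and 10.4, 0.157 and 21.3 CPM at P21 (log2 change -3.66 ± 0.83, adjusted p = 0.00989). Aurkb and Birc5, further passenger complex members, fell to levels 3.59-fold and 3.17-fold lower. Mki67 had 83.3, 64.5 and 71.1 CPM at E14.5 and 1.56, 19.3 and 32.5 CPM at P21 and did not pass (log2 change -2.04 ± 0.91, adjusted p = 0.173), but it did in limma voom (adjusted p = 0.00819), and Top2a had 333, 297 and 292 CPM at E14.5 and 6.80, 29.5 and 134 CPM at P21 (log2 change -2.44 ± 0.72, adjusted p = 0.0419). For both genes P21 replicate 3 was the highest P21 library and replicate 1 the lowest, and Top2a lost its call without any 1 of 5 libraries. Cenpa, the centromeric histone, had 138, 121 and 97.9 CPM at E14.5 and 113, 115 and 112 CPM at P21 and did not pass (log2 change -0.06 ± 0.17, adjusted p = 0.865). Without E14.5 replicates 1 and 2, 7 mitotic genes were called lower, and 10 of those of DNA replication.

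Of 34 DNA replication genes tested 20 fell and 0 rose, with a median of -1.79, and 33 were lower in every P21 library than in every E14.5 library. The MCM proteins form the replicative helicase. Mcm5 had 349.97, 350.04 and 372 CPM at E14.5 and 84.2, 79.03 and 114 CPM at P21 (log2 change -1.95 ± 0.17, adjusted p = 4.59e-06), Mcm6 had 713, 666 and 641 CPM at E14.5 and 159, 128 and 229 CPM at P21 (log2 change -1.97 ± 0.25, adjusted p = 0.000142) and Mcm4 had 267, 259.6 and 275.5 CPM at E14.5 and 52.3, 29.3 and 73.7 CPM at P21 (log2 change -2.37 ± 0.29, adjusted p = 9.63e-05). Rrm1, a subunit of ribonucleotide reductase, had 450.3, 362 and 377 CPM at E14.5 and 86.2, 134 and 123 CPM at P21 (log2 change -1.80 ± 0.21, adjusted p = 7.8e-05). Gins4, a subunit of the same helicase complex, had 81.98, 63.8 and 64.4 CPM at E14.5 and 76.7, 67.8 and 54.2 CPM at P21 and did not pass (log2 change -0.08 ± 0.18, adjusted p = 0.833). E2F sites, searched as TTTGGCGC and TTTCCCGC on both strands, were in 6 of 20 listed promoters of the genes that fell (30%) and in 1.565% of all promoters. Uhrf1 and Dnmt1, which copy DNA methylation at the replication fork, were the 2 of 12 DNA methylation genes called, beside 12.2% over all genes tested. Uhrf1 had 157, 136 and 153 CPM at E14.5 and 34.5, 36.05 and 35.6 CPM at P21 (log2 change -2.07 ± 0.32, adjusted p = 0.000604), while Dnmt1 lost its call without E14.5 replicate 3, P21 replicate 1 or 2, or both E14.5 replicates 1 and 2 (log2 change -1.63 ± 0.41, adjusted p = 0.0176).

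**Figure D4:**
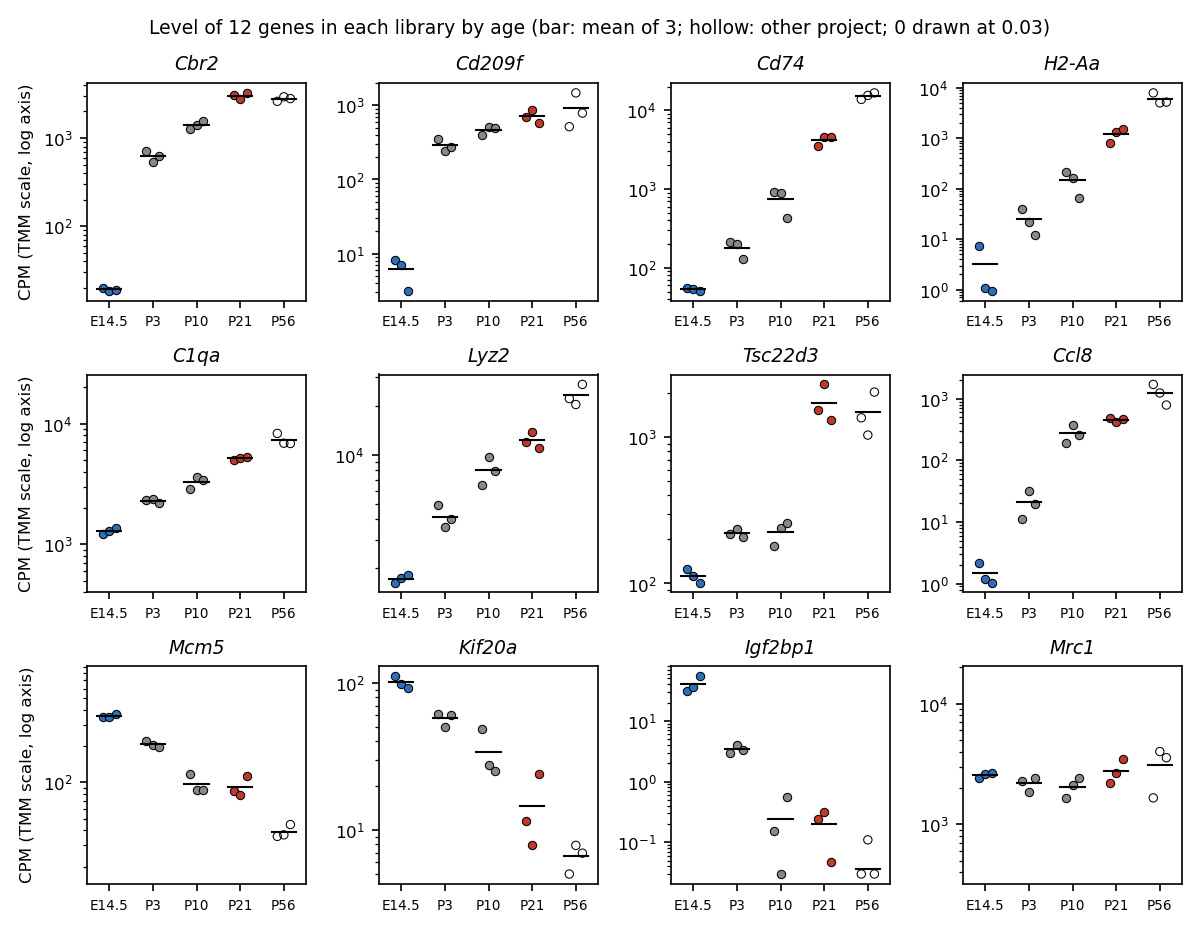
Each panel shows 1 gene, with its CPM in every library (points, log axis) and the mean of the 3 libraries (bar) at each age. E14.5 points are blue, P21 points red, P3 and P10 grey, and P56 points, from another project, hollow. Cbr2 is high by P3, Tsc22d3 rises between P10 and P21, Mcm5 and Kif20a fall step by step, and the Mrc1 points of E14.5 and P21 overlap.

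Genes of glycolysis fell for 11 of 18 tested and rose for 0, with a median of -0.87, and 7 fell without E14.5 replicate 2. Leaving out E14.5 replicates 1 and 2 together left 3 falls. Pkm, which makes pyruvate, had 631, 629 and 607 CPM at E14.5 and 223, 162 and 201 CPM at P21 (log2 change -1.67 ± 0.14, adjusted p = 3.12e-06). Ldha, which turns pyruvate into lactate, had 966, 926 and 852 CPM at E14.5 and 371, 316 and 332 CPM at P21 (log2 change -1.43 ± 0.18, adjusted p = 0.000106). Tpi1 fell by 2.16-fold, Eno1 by 1.75-fold and the glucose transporter gene Slc2a1 by 4.02-fold. The hexokinase genes Hk1 and Hk3 had log2 changes of 0.58 and -0.03 and did not pass. Of 29 genes of oxidative phosphorylation 0 rose and 3 fell, with a median of 0.13, and each of the 3 lost its call without at least 1 library and without E14.5 replicates 1 and 2. Ribosomal protein genes fell for 2 of 30 tested, Rps2 and Rpl4, and for 9 with scaling by the total count. Over all genes tested 4.37% were called lower, so the small counts of falls in the main fit say little about either list. The ribosomal list had a median log2 change of -0.37. Of its 30 members 14 were lower in every P21 library than in every E14.5 library, and 1 was higher. Over all genes tested these shares were 17.4% and 16.1%. Rpl4 lost its call without any 1 of the 6 libraries and Rps2 without E14.5 replicate 1, and 0 fell without E14.5 replicates 1 and 2.

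Lysosomal genes rose for 11 of 24 tested and fell for 1, with a median of 0.37, but 5 rose and 2 fell with scaling by the total count, and 7 rose without E14.5 replicate 2, E14.5 replicate 3 or P21 replicate 2. There were 4 rises without E14.5 replicates 1 and 2. Ctsh, a cysteine protease, had 259, 301 and 300.1 CPM at E14.5 and 1555, 1508 and 1194 CPM at P21 (log2 change 2.31 ± 0.13, adjusted p = 1e-07). Ctsc rose by 2.28-fold, and Hgsnat, which acts in heparan sulphate breakdown, had 607, 525 and 515 CPM at E14.5 and 249, 215 and 262 CPM at P21 (log2 change -1.18 ± 0.13, adjusted p = 4.19e-05). Lamp1 and Ctsd had log2 changes of 0.00 and 0.08 and did not pass.

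Of 18 genes of lipid handling 2 rose and 3 fell, beside 7.81% higher and 4.37% lower over all genes tested. Apoe, a carrier of cholesterol, had 16438, 11007 and 11563 CPM at E14.5 and 49824, 42549 and 39149.8 CPM at P21 (log2 change 1.75 ± 0.17, adjusted p = 1.48e-05), and Pltp, which moves phospholipids between lipoproteins, had 67.3, 67.9 and 82.7 CPM at E14.5 and 1049, 1035 and 1155 CPM at P21 (log2 change 3.89 ± 0.13, adjusted p = 3.72e-10). Abca1, a cholesterol exporter, fell (log2 change -0.77 ± 0.21, adjusted p = 0.0304), as did Apoc1 and Fabp5, but these 3 lost their calls without at least 4 of the 6 libraries each, and 0 genes of the list fell without E14.5 replicates 1 and 2. Of 16 genes of the iron and heme list 5 rose and 1 fell. Hpgd, 1 of the 5 (log2 change 2.04), encodes a prostaglandin-degrading enzyme and is not itself an iron or heme gene. The fall was lost without any 1 of 4 libraries, E14.5 replicate 2 or 3 or P21 replicate 2 or 3. It was also lost without both E14.5 replicates 1 and 2. Trf, transferrin, had 1748, 1290.1 and 1358 CPM at E14.5 and 7006, 6359 and 6412 CPM at P21 (log2 change 2.17 ± 0.13, adjusted p = 1.44e-07), and Cp, the ferroxidase ceruloplasmin, had 25.1, 24.3 and 20.7 CPM at E14.5 and 243, 262 and 249 CPM at P21 (log2 change 3.42 ± 0.25, adjusted p = 6.79e-07). Slc40a1, the iron exporter, had 1308, 1309 and 1405 CPM at E14.5 and 1256, 780.3 and 1115 CPM at P21 and did not pass (log2 change -0.35 ± 0.38, adjusted p = 0.621).

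Among 20 adhesion genes 4 rose and 1 fell. Over all genes tested the shares were 7.81% higher and 4.37% lower, which apply to the apoptotic cell list below as well. Vcam1, an adhesion molecule for leukocytes, had 19.4, 20.9 and 25.9 CPM at E14.5 and 1296, 1992 and 991 CPM at P21, a 64.5-fold rise (log2 change 6.01 ± 0.46, adjusted p = 1.3e-06). Itga6, a laminin receptor chain, had 237, 230.4 and 258 CPM at E14.5 and 79.4, 48.9 and 110.2 CPM at P21 (log2 change -1.60 ± 0.23, adjusted p = 0.000373). Itgam and Itgb2, the chains of the CD11b/CD18 integrin, rose by 2.52-fold and 2.63-fold. Of 18 genes for the uptake of apoptotic cells 3 rose and 1 fell, with 0 falls without E14.5 replicate 1, E14.5 replicate 3 or P21 replicate 1 and with 1 rise and 0 falls without E14.5 replicates 1 and 2. Timd4, a receptor for phosphatidylserine, had 29.7, 27.3 and 24.3 CPM at E14.5 and 83.4, 56.7 and 102.95 CPM at P21 (log2 change 1.58 ± 0.35, adjusted p = 0.00847), and Axl, which binds it through Gas6, had 112, 126 and 123 CPM at E14.5 and 323, 162 and 292 CPM at P21 and lost its call without P21 replicate 1 (log2 change 1.11 ± 0.25, adjusted p = 0.0107).

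Genes of the oncofetal and imprinted list fell for 5 of 18 tested and rose for 0, and 1 fell without E14.5 replicates 1 and 2. Igf2bp3 had 122, 132 and 141 CPM at E14.5 and 30.1, 14.8 and 23.4 CPM at P21 (log2 change -2.53 ± 0.56, adjusted p = 0.00818), and Arid3a, a transcription factor of fetal blood cells, had 93.8, 104 and 102.98 CPM at E14.5 and 18.3, 34.1 and 44.4 CPM at P21 (log2 change -1.63 ± 0.29, adjusted p = 0.00206). Lin28b, which blocks let-7 miRNAs, had 3.56, 8.06 and 9.64 CPM at E14.5 and 0.0978, 0.104 and 0.0963 CPM at P21 and did not pass (log2 change -6.08 ± 1.87, adjusted p = 0.0654), although it was called by DESeq2 (adjusted p = 0.00298), by limma voom (0.0165) and with scaling by the total count (0.0459). Hmga2 was not tested, with 23 counts over the E14.5 libraries and 2 over the P21 libraries. The imprinted genes H19 and Cdkn1c had log2 changes of 0.87 and 0.68 and did not pass. Of 14 genes of phagocytes in developing tissue 4 were higher and 4 lower. The falls dropped to 2 without E14.5 replicate 1, P21 replicate 2 or P21 replicate 3, and there were 2 rises and 1 fall without E14.5 replicates 1 and 2. Clec7a, a receptor for fungal glucans, had 22.6, 13.96 and 13.3 CPM at E14.5 and 70.6, 124 and 102 CPM at P21 (log2 change 2.58 ± 0.37, adjusted p = 0.000416), opposite in direction to Spp1.

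Of 33 transcription factors of macrophages 10 rose and 1 fell, with a median of 0.28, beside 7.81% higher and 4.37% lower over all genes tested. Spic, a factor of macrophages that handle heme, had 3.52, 3.45 and 2.71 CPM at E14.5 and 47.4, 44.3 and 31.9 CPM at P21 (log2 change 3.67 ± 0.39, adjusted p = 3.21e-05). Cebpb had 289, 186 and 199.6 CPM at E14.5 and 1883, 1394 and 1122 CPM at P21 (log2 change 2.71 ± 0.30, adjusted p = 4.84e-05) and Id3 rose by 4.52-fold. Maf, a transcription factor of the leucine zipper family, had 265, 444 and 429.8 CPM at E14.5 and 347, 567 and 508 CPM at P21 and did not pass (log2 change 0.32 ± 0.22, adjusted p = 0.391). Of 15 clock genes 2 rose, Dbp and Per1, and 0 fell, with Per1 not called without E14.5 replicates 1 and 2 (adjusted p = 0.169). The share called higher over all genes tested was 7.81%. Dbp had 0.391, 2.20 and 3.65 CPM at E14.5 and 20.4, 29.01 and 18.98 CPM at P21 (log2 change 3.44 ± 0.57, adjusted p = 0.0012), whereas Arntl, which drives it, had 30.7, 32.5 and 42.1 CPM at E14.5 and 71.04, 19.04 and 48.9 CPM at P21 and did not pass (log2 change 0.40 ± 0.39, adjusted p = 0.574).

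The libraries of P3 and P10, which do not enter this contrast, show when the changes took place. A gene was said to have passed the midpoint at an age when its mean log2 level there had covered over 50% of the change from E14.5 to P21. Of the 775 genes called at least 2-fold higher, 325 had passed it by P3 and remained past it at P10, 254 passed it by P10, 160 after P10, and 36 were past it at P3 but not at P10. Of the 411 called at least 2-fold lower, 89 had passed it by P3, 182 by P10 and 121 after P10, and 19 at P3 but not at P10. These are counts with no test, and the midpoint of each gene comes from the values that called it.

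By group, the counts were as follows, with no test between groups. For MHC class I 12 of the 15 genes that rose had passed the midpoint by P3, and for class II 0 of 8 had, with 7 passing by P10. The mean class II sum was still far lower at P10 than at P21, with 391 CPM of the total at E14.5, 1754 at P10 and 7746 at P21. H2-K1 had 317 ± 63.99 CPM at E14.5, 1129 ± 70.8 CPM at P3, 1239.9 ± 109 CPM at P10 and 1719 ± 199 at P21 (SD, n = 3) and H2-Aa 3.17 ± 3.72 CPM at E14.5, 24.6 ± 13.8 CPM at P3, 147 ± 75.8 CPM at P10 and 1222 ± 363 at P21 (SD, n = 3). Of the 11 glucocorticoid-responsive genes that rose, 7 passed after P10. Tsc22d3 had 113 ± 12.2 CPM at E14.5, 220.1 ± 13.2 CPM at P3, 226 ± 40.9 CPM at P10 and 1713 ± 514 at P21 (SD, n = 3), so P3 and P10 lay close together and P21 was far above both. Of the border macrophage genes that rose 9 of 17 had passed the midpoint by P3, among them Cbr2, which had 19.3 ± 0.796 CPM at E14.5, 622 ± 82.3 CPM at P3, 1400.1 ± 145 CPM at P10 and 3018 ± 238 at P21 (SD, n = 3).

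Among the genes that fell, 16 of 20 DNA replication genes passed the midpoint by P10 and 0 after it, whereas 10 of 22 mitotic genes passed after P10. Mcm5 had 357 ± 12.9 CPM at E14.5, 207 ± 13.2 CPM at P3, 96.5 ± 18.2 CPM at P10 and 92.3 ± 18.6 at P21 (SD, n = 3), and Kif20a had 101 ± 9.77 CPM at E14.5, 57.5 ± 6.24 CPM at P3, 33.9 ± 13.03 CPM at P10 and 14.502 ± 8.49 at P21 (SD, n = 3). Igf2bp1 had 40.8 ± 12.7 CPM at E14.5, 3.44 ± 0.531 CPM at P3, 0.238 ± 0.289 CPM at P10 and 0.202 ± 0.137 at P21 (SD, n = 3). Interferon-stimulated genes did not move steadily: 9 of 19 had passed by P3 and stayed past it, but 7 were past it at P3 and back below it at P10. Their summed level was 3005 ± 48.3 CPM of the total at P3, 2198 ± 223 at P10 and 3866 ± 356 at P21 (SD, n = 3). At P56, in the other project, 716 of the 775 genes that rose and 353 of the 411 that fell lay on the P21 side of the midpoint. Age and project cannot be told apart there.

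Markers of cells other than macrophages were low or mixed in most lists. Of T and NK cell markers Cd3e, Cd3d and Cd8a were at 0 in both ages, and Cd4, which some macrophages also express, made up most of the list, with 41.1, 28.99 and 27.6 CPM at E14.5 and 213, 283 and 314 CPM at P21 (log2 change 3.05 ± 0.31, adjusted p = 2.03e-05). Neutrophil markers summed to 34.4, 36.4 and 35.4 CPM of the total count at E14.5 and 35.8, 40.96 and 40.6 at P21, and neural markers to 24.6, 26.8 and 16.01 CPM of the total count at E14.5 and 46.7, 47.4 and 29.4 at P21. Mast cell markers summed to 129, 5.94 and 2.15 CPM of the total count at E14.5 and 10.1, 4.05 and 11.495 at P21, so E14.5 replicate 1 stood far above the rest, and 0 of 10 members were called. Osteoclast markers summed to 715, 787 and 271 CPM of the total count at E14.5 and 325, 246 and 341 at P21, with 0 of 8 called. The endothelial sum was mostly Lyve1 and the megakaryocyte sum mostly Pf4, both of which border macrophages express. The B cell sum was mostly Ighm and Cd79b. It was 648, 507 and 518 CPM of the total count at E14.5 and 915, 779 and 790 at P21. Of 4 B cell markers tested 1 was called higher and 0 lower. The part of these cells in the results was not tested.

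**Figure D5:**
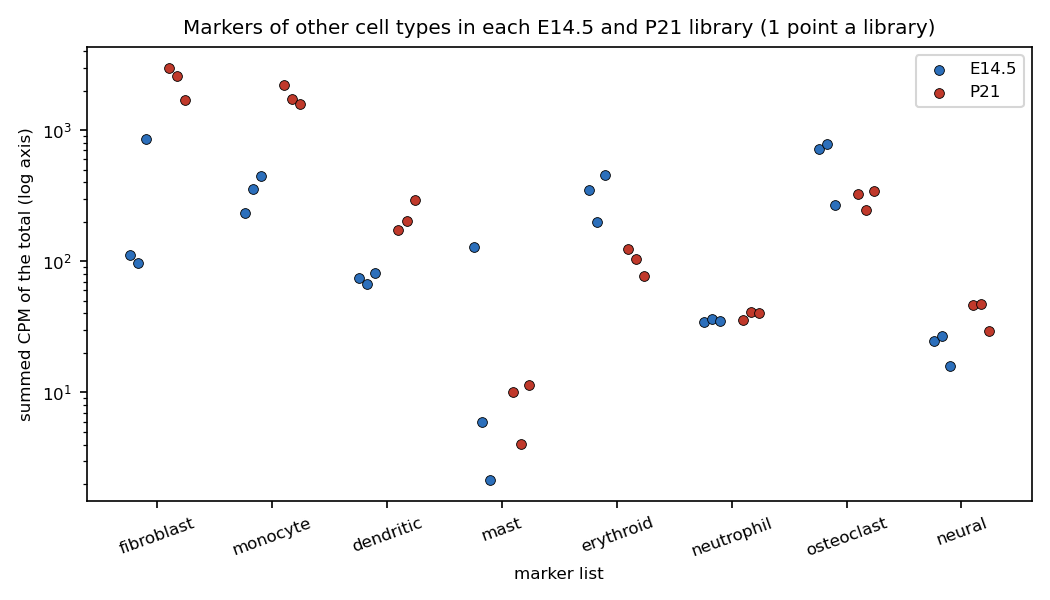
Each point is the summed level of a marker list in 1 library, as CPM of the total count on a log axis, with E14.5 in blue and P21 in red. Fibroblast and monocyte sums are higher in every P21 library than in every E14.5 library, erythroid sums are lower, and the mast cell sum is high in E14.5 replicate 1 alone.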

How the data were processed

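Bulk RNA of sorted CD206-positive dural cells was sequenced in 15 libraries, 3 per age. Per the labels' protocols, the PicoPure kit gave the RNA, the SMARTer low-input kit the cDNA and Nextera XT the libraries. The values are the raw read counts per gene symbol that the authors deposited, with no normalization. Tools named in the submitters' processing notes are featureCounts 2.0.2, STAR 2.7.8a and bcl2fastq 2.18. The build, the strand setting and the treatment of reads that map to several genes are not given in the sources used here. Reads of overlapping or near-identical genes therefore cannot be told apart. Total counts of the 6 libraries compared ranged from 20540444 to 25171858. Intervals and floors cover counting error only. Of 53546 symbols, 50067 matched GENCODE M21.

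All 15 libraries were fitted with edgeR 4.0.16 in R 4.3.3, with age as the only term, TMM scaling and the filterByExpr filter, which left 14683 genes. P21 minus E14.5 was tested by quasi-likelihood (robust), with Benjamini-Hochberg adjustment over all genes tested and calls under 0.05. The p-values reflect only the spread among labelled replicates, since the labels do not say which animals each library came from. CPM of single genes are on the TMM scale, and list sums are CPM of the total count. The test was checked on simulated data with 200 changed genes. It recovered 14.9% of 2-fold, 47.8% of 4-fold and 68.2% of 8-fold changes, and 1.14% of its 88 calls were false. A gene that did not pass may therefore still have changed. The simulation changed far fewer genes than the 1789 called in the data, so its rates need not hold for the data.

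The members, the 30 function lists, the 13 lists of other cells and the rule for named genes were chosen with earlier results of these data known. Named genes were up to 15 of the largest rises and falls (called, at least 20 CPM in the higher age, libraries not overlapping, no predicted, ribosomal or mitochondrial gene), up to 5 called members of each list with the smallest p, up to 2 members that did not pass with the highest mean, and a set of fixed genes. Dab2, Colec12, F13a1, Ciita, Ccl3, Il10, Egr1, Myc, Cd4 and members of lists named only by their sums or as absent were chosen after their values were seen. Results of a few genes that the rule named are not reported here. Lists share members, so their counts are not independent. The counts of all lists are to be read beside the shares over all genes tested, 7.81% higher and 4.37% lower.

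Alternatives were RLE and upper quartile scaling, no filter, a filter of 5 CPM in 3 libraries, fits of 12 or 6 libraries, the replicate number as a block, DESeq2 1.42.0, limma 3.58.1 with voom, thinned counts, a test against a log2 change of at least 1 and leaving out each library. Scaling by total count and leaving out E14.5 replicates 1 and 2 together were added after seeing the data. Promoters and their coordinates are those of RefSeq on GRCm38.p6, and were matched by symbol.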

Additional observations from a re-analysis of the deposited data

How the results depend on the processing

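The direction of change of the 1789 called genes was kept under every alternative that tested them, except for 1 gene with scaling by the total count. Counts were less stable. DESeq2 called 2756 genes, 1112 of them lower and 1805 at least 2-fold, and limma voom called 1143 lower, with rises making up 51.8% of its calls. The test against a log2 change of at least 1 called 354 genes, 292 higher and 62 lower, so that rises made up 82.5%. Scaling by the total count alone, added after seeing the data, gave 747 rises and 1493 falls. Leaving out 1 library at a time gave 1108 to 1933 calls, 746 to 1105 of them higher, 362 to 828 lower and 831 to 1431 at least 2-fold. The lowest of each came without E14.5 replicate 2, and falls also dropped to 379 without E14.5 replicate 3. Without E14.5 replicates 1 and 2 together, also added after seeing the data, 374 genes were called, 304 higher, 70 lower and 346 at least 2-fold. That fit left E14.5 with 1 library, so fewer samples bear on it. In it 8 border macrophage genes rose, 9 of MHC class I, 6 of MHC class II, 7 of complement, 10 interferon-stimulated, 7 glucocorticoid-responsive and 10 immediate early genes, and 3 genes of glycolysis fell. RLE and upper quartile scaling, no filter, the filter of 5 CPM, the fits of 12 or 6 libraries and thinning gave 1438 to 1990 calls.

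Deviations from the age means in E14.5 and P21 libraries with the same replicate number had r of 0.013, -0.007 and 0.062 for numbers 1 to 3. Pairs of these ages with different numbers had r from -0.062 to 0.037. With 3 libraries per age, these values cannot show whether libraries with the same number shared animals or handling. The fit with the replicate block and the 12 libraries of 1 project called 1886 genes, 1095 higher and 791 lower. Of the 153 named genes that were called, 95 kept their call under all alternatives and 23 lost it without at least 1 library. Many of the 153 also lost their call in the fit that left E14.5 with 1 library. Among these were Ccnb1, Tpx2, Igf2bp3, Arid3a, Tmem119 and Timd4. Their log2 changes in that fit were -3.45, -3.52, -2.62, -1.66, 1.23 and 1.75, in the same direction as in the main fit. With scaling by the total count Ccr2 (adjusted p = 0.0672), Fkbp5 (0.0643), Irak4 (0.126) and Adgre1 (0.234) were no longer called, while 11 named genes gained a call. Of the 1789 calls, 927 were kept without each of the 6 libraries. Genes under a few CPM are limited by depth: 3 counts are 0.104 to 0.157 CPM in these libraries.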
